A study of Mus musculus with 3 samples.

Results

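The RANKL axis and the genes of osteoclast differentiation were described in inflamed mouse knee synovium at single-cell resolution. The 10 genes were taken by name from the 24357 genes in the deposited matrices: Tnfsf11, Tnfrsf11a, Tnfrsf11b, Nfatc1, Dcstamp, Ocstamp, Acp5, Atp6v0d2, Oscar and Calcr. They were chosen by name and not by a cut on their values, with earlier results of these data known. All cells came from female wild type C57BL/6 mice, 8 weeks old, with arthritis brought on by collagen and antibodies (C&AIA). The mice were immunised with 100 µg of type II collagen on day 0, given 1 mg of anti-collagen antibodies on day 21 and lipopolysaccharide (LPS) on day 22, and sampled at the effector phase. The 3 libraries, called replicates 1 to 3, each held the pooled synovium of 2 mice, and no untreated or unaffected group was among the samples. Every comparison is therefore between cell classes within the same arthritic joints, in 3 pooled libraries. Its p-value and standard error come from a model that shares information on spread over all genes. They can be far smaller than the spread of a single gene over the libraries would give, which the library values show.

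RANKL, the product of Tnfsf11, is a cytokine of the TNF family made by stromal cells and by activated T cells. It binds its receptor RANK, the product of Tnfrsf11a, on cells of the monocyte and macrophage lineage, and osteoprotegerin, the product of Tnfrsf11b, is a soluble decoy that takes RANKL away from RANK. RANK signalling acts through TRAF6, NF-kB and AP-1 to switch on the transcription factor NFATc1 (Nfatc1), which drives the fusion proteins DC-STAMP and OC-STAMP (Dcstamp, Ocstamp), the acid phosphatase TRAP (Acp5), the d2 subunit of the proton pump (Atp6v0d2), the co-stimulatory receptor OSCAR (Oscar) and, in mature osteoclasts, the calcitonin receptor (Calcr). In arthritis this pathway is known for the bone erosion that starts where the synovium meets bone.

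The start-site regions of the ligand, the receptor and a pair of target genes are printed because the ligand, the receptor and the targets followed 3 different patterns across the cell classes described further on. They are RefSeq promoters on GRCm38.p6, from 250 bases before to 50 bases after an annotated start, 5′ to 3′ on the strand of the gene. Of the 10 genes, 5 had an entry in the promoter table (Tnfsf11, Tnfrsf11a, Acp5, Oscar and Calcr, with 8 starts in all). Tnfrsf11b, Nfatc1, Dcstamp, Ocstamp and Atp6v0d2 had no entry. Acp5 has 3 starts, of which start 3, the one with the most matches, is shown. Capitals mark matches, on either strand, to the core GGAAA that NFAT factors bind, to the PU.1 core GAGGAA or to the E-box CATGTG that MITF binds. A match on the other strand is seen as the reverse complement.
Tnfsf11 (chr14:78307994-78308293, minus strand): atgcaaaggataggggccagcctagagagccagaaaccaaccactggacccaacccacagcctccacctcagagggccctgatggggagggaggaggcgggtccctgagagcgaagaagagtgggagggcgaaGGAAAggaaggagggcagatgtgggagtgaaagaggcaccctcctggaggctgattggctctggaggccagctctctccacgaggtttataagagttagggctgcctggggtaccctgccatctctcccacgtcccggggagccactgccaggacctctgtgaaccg
Tnfrsf11a (chr1:105780473-105780772, plus strand): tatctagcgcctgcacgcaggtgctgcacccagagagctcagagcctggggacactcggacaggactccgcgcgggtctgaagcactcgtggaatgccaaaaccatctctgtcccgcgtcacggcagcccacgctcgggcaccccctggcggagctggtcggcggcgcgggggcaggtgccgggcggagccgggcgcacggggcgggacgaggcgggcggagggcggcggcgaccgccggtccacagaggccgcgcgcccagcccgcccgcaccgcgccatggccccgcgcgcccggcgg
Acp5 (chr9:22130549-22130848, minus strand): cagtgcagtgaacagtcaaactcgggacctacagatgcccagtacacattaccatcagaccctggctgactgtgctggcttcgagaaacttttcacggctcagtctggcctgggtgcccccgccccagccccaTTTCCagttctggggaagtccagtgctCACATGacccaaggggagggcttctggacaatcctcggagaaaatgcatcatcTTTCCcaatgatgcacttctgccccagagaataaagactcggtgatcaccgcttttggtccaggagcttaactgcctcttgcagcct
Oscar (chr7:3616108-3616407, minus strand): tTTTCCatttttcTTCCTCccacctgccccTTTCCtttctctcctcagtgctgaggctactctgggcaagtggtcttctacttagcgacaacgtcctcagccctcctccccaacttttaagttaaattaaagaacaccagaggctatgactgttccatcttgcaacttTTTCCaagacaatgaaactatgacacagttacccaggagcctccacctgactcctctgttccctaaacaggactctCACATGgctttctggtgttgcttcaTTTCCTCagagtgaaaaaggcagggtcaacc
The 300 bases of Oscar held 4 NFAT cores, 2 PU.1 cores and 1 such E-box, start 3 of Acp5 held 2 NFAT cores and 1 E-box, and Tnfsf11 held 1 NFAT core. Starts 1 and 2 of Acp5 and start 2 of Calcr held 1 NFAT core each and no other match, and start 1 of Calcr held none. Tnfrsf11a held no match to any of the 5 motifs searched. The other motifs were AP-1 (TGANTCA) and the NF-kB consensus, which none of the 8 starts held. Among all 32851 promoters of the same length, 61.3% held an NFAT core, 28.3% a PU.1 core, 14.2% the E-box, 7.81% the AP-1 motif and 1.63% the NF-kB motif. The NFAT and PU.1 cores can overlap in GAGGAAA, and the NF-kB consensus contains an NFAT core. A match is a description of the letters and was not tested as a binding site.

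The deposited matrices held 11939, 11602 and 15263 cell barcodes with 101384374, 99782608 and 116125707 unique molecular identifiers (UMIs), 1 for each captured transcript molecule. Levels are UMIs of a gene in each 1000000 UMIs of a cell class (CPM), given as mean ± SD over 3 libraries. Cells were sorted into classes one by one by marker genes, none of which was one of the 10 genes. The 36869 cells analysed held 289 osteoclast-like cells (109, 93 and 87 in replicates 1 to 3), 11081 monocyte/macrophage-like, 8091 fibroblast-like and 918 T cell-like cells. Classes rest on a score, so their edges are ranges: 6 osteoclast-like, 11 T cell-like, 191 fibroblast-like and 285 monocyte/macrophage-like cells lay near the margin. Fibroblasts held 1130 lining-like and 3738 sublining-like cells, the layers of the labelled tissue, and 11158 cells were neutrophil-like. Osteoclast-like cells carried Ctsk, a protease gene, at 4761 ± 277 CPM against 50.4 ± 4.20 in monocyte/macrophage-like cells. Their 13 summed macrophage markers reached 2761 to 4238 CPM against 20235 to 26190 in the macrophage class, while Csf1r was at 581 ± 61.2 against 500 ± 10.4. Their 8 summed T cell markers reached 37.5 to 43.8 CPM against 3915 to 4486 in T cell-like cells, and their 10 fibroblast markers 3710 to 4917 against 57486 to 59817 in fibroblast-like cells.

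Free RNA in the droplets adds a low count to every class. An upper limit for it was set from S100a8 and S100a9, neutrophil genes that were assumed to reach other classes only as free RNA (from collagen genes for neutrophil classes). The make-up of free RNA was taken as that of the whole library. For a gene that is richer in free RNA than in the library, the limit would be too low. Fold changes are log2 values ± standard error from edgeR, and a gene was called at an adjusted p under 0.05 with a change of at least 1 on the log2 scale.

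The 10 genes fell into very different ranges of abundance over all cells. Acp5 gave 62276 UMIs, Nfatc1 19192, Tnfrsf11a 9150, Atp6v0d2 5347, Tnfsf11 3691 and Ocstamp 1661. Dcstamp gave 959 UMIs, Tnfrsf11b 320, Oscar 308 and Calcr 47, so statements on the last 3 rest on few molecules. These totals are not corrected for transcript length and are not a ranking of expression.

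**Figure D1:**
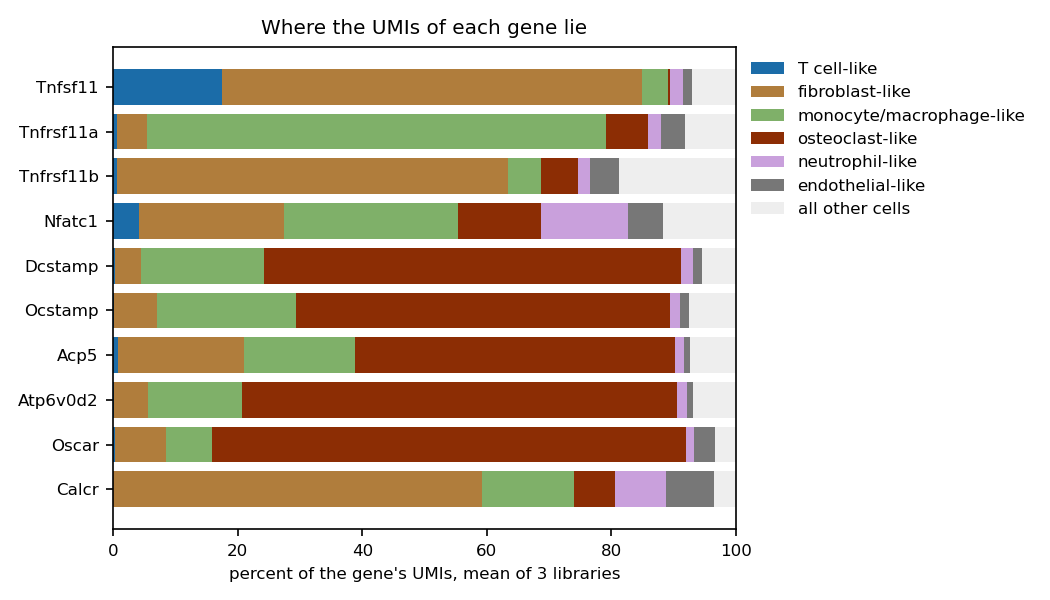
Share of the UMIs of each gene (x axis, percent, mean of 3 libraries) that lay in each cell class (colours). The ligand gene Tnfsf11 lay mostly in fibroblast-like cells (67.4%) and T cell-like cells (17.5%), the receptor gene Tnfrsf11a in monocyte/macrophage-like cells (73.7%), and Dcstamp, Ocstamp, Atp6v0d2 and Oscar mostly in osteoclast-like cells. Acp5 had 59.3%, 58.1% and 37.3% there in replicates 1 to 3.

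Tnfsf11, the ligand gene, was highest in conventional helper-type T cells and second in the stroma. In T cell-like cells it stood at 102 CPM in replicate 1, 119 in replicate 2 and 182 in replicate 3, and in fibroblast-like cells at 22.1, 26.9 and 17.1. Each T cell value lay above each fibroblast value. The gene rose by 2.08 ± 0.12 on the log2 scale in T cell-like against fibroblast-like cells (134 ± 42.0 against 22.0 ± 4.88 CPM, adjusted p = 3.72e-65, edgeR, higher in 3 of 3 libraries). Without the library block the adjusted p in edgeR was 1.67e-07 at nearly the same fold change, 2.07. Scaled by library totals in place of TMM, the median gene of this comparison moved from -0.13 to 0.39, the change of Tnfsf11 was 2.60, and the calls over all genes turned from 3010 higher and 3674 lower to 4525 and 2564.

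Level and share of the ligand transcript pointed to different cells. T cell-like cells held 1.66% of all UMIs and 17.5% ± 4.78 of the Tnfsf11 UMIs, while fibroblast-like cells held 38.9% of all UMIs and 67.4% ± 4.18 of the Tnfsf11 UMIs. The fibroblast share was 67.8%, 71.4% and 63.1% in the 3 libraries and was the larger in each. Tissue dissociation can change the mix of cells, so these shares are of the recovered cells, and in summed counts more cells and more RNA per cell cannot be told apart.

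By single cells, 22.4% ± 3.50 of T cell-like cells (median 3895 UMIs) and 19.1% ± 4.74 of fibroblast-like cells (median 11262 UMIs) held a Tnfsf11 UMI. Monocyte/macrophage-like cells, which served as the background, held one in 1.44% ± 0.326 (median 6531 UMIs). With each cell thinned to 1000 UMIs, the shares were 8.71% ± 4.81, 2.28% ± 0.663 and 0.198% ± 0.0513. Both T cells and fibroblasts thus stood above the background class at equal depth, and the levels in monocyte/macrophage-like (1.81 ± 0.176 CPM), osteoclast-like (1.83 ± 0.235) and endothelial-like cells (2.07 ± 0.218) were below their free RNA limits of 2.38, 2.48 and 2.28 CPM.

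**Figure D2:**
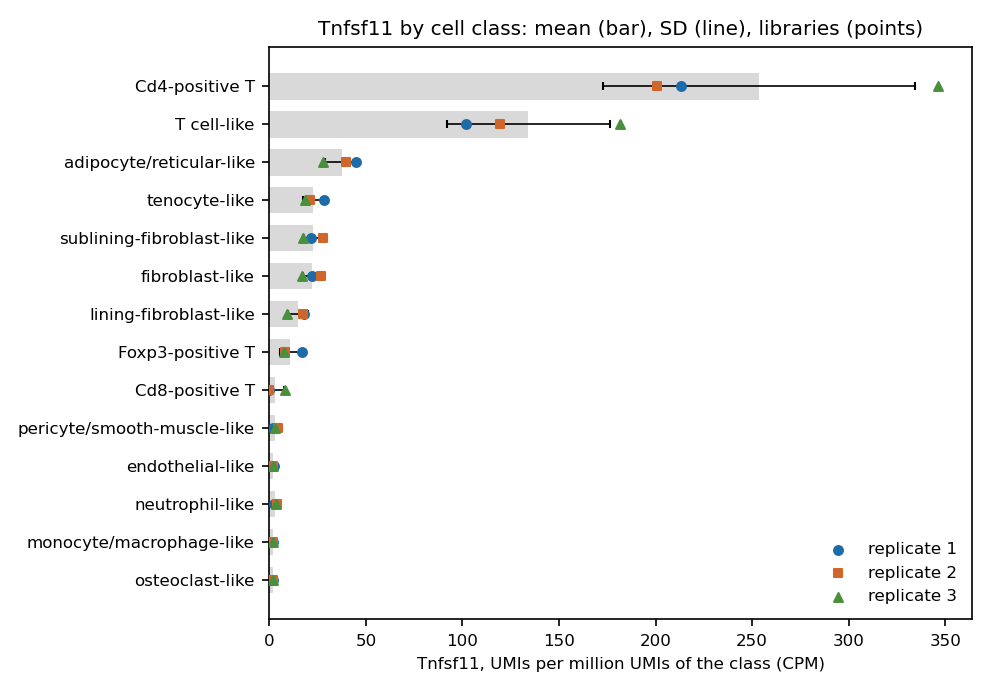
Tnfsf11 in CPM (x axis) by cell class (y axis), with bars for the mean, lines for the SD and a point for each of 3 libraries. Cd4-positive T cells lie between 201 and 346, and every fibroblast class lies under 30.

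Among T cell subsets, the ligand gene was concentrated in Cd4-positive cells without Foxp3. T cells with a UMI of Cd4 or Cd40lg, no Foxp3 UMI and no place in a further T cell gate that is not reported here, stood at 213, 201 and 346 CPM (mean 254 ± 80.8), with replicate 3 the highest. Foxp3-positive cells, the regulatory type, stood at 17.1, 8.21 and 7.34 CPM (mean 10.9 ± 5.38), far below in every library. Cd8-positive cells held 1 UMI of Tnfsf11 among 77 cells.

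The gap between helper-type and Foxp3-positive cells was 4.31 ± 0.31 on the log2 scale (adjusted p = 1.71e-07, edgeR, 3 of 3 libraries). Of the 10 genes, 3 passed the filter on low counts here and 2 were called, Tnfsf11 and Nfatc1, against 5.52% of all genes tested. Tnfsf11, at a mean of 10.9 CPM in Foxp3-positive cells, passed the filter through its Cd4-positive counts alone. A call for Tnfsf11 could therefore only be higher. Without replicate 2, the calls over all genes fell from 335 to 68, while the change of Tnfsf11 stayed between 3.89 and 5.07 with each library left out in turn. This comparison was added after the levels by class had been seen.

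In the stroma, Tnfsf11 was spread over every fibroblast class. It stood at 21.7, 27.7 and 17.6 CPM in sublining-fibroblast-like cells (vessel-rich tissue under the surface) and 18.1, 17.4 and 9.05 in lining-fibroblast-like cells (the surface layer). Sublining values were above lining values within each library, and the groups overlapped across libraries. The change was 0.68 ± 0.13 on the log2 scale, under the fold needed for a call (adjusted p = 0.00136, edgeR). Tenocyte-like cells, marked by tendon genes, stood at 22.4 ± 5.19 CPM.

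Adipocyte/reticular-like cells, which carry fat and marrow stroma markers, had the highest stromal level at 45.0, 39.4 and 27.8 CPM (mean 37.4 ± 8.79). All 3 values were above the fibroblast values of 17.1 to 26.9. The difference from fibroblast-like cells was 0.76 ± 0.22 on the log2 scale and was not called because of its size (adjusted p = 0.00374, edgeR). This comparison was added after the levels had been seen.

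Pericyte/smooth-muscle-like cells, which wrap vessels, held little of the ligand gene. Their values were 1.62, 4.53 and 2.67 CPM, near a free RNA limit of 2.89, and replicate 2 was the highest. Tnfsf11 was lower than in fibroblast-like cells by a log2 change of -3.30 ± 0.23 (adjusted p = 5.67e-09, edgeR, 3 of 3 libraries). Of the 10 genes, 7 passed the filter on low counts and 4 were called lower (Tnfsf11, Tnfrsf11b, Acp5 and Atp6v0d2), where 8.91% of all genes were called lower. Tnfrsf11b had no UMI in the pericyte class and passed the filter through its fibroblast counts alone. A call for Tnfrsf11b could therefore only be lower (-8.20 ± 1.63). Acp5 changed by -2.06 ± 0.10 (33.4 ± 9.34 against 107 ± 24.1 CPM), with a free RNA limit of 49.4 in the pericyte class. The call for Atp6v0d2, at 1.40 ± 0.776 against 2.52 ± 0.768 CPM, was lost without replicate 2 (-0.996) or 3 (-0.97). With library totals as scaling, the calls in this comparison turned from 1456 higher and 1280 lower to 2476 and 840.

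Tnfrsf11b, the decoy receptor gene, was close to the detection limit everywhere. Its 320 UMIs lay for 62.7% ± 4.45 in fibroblast-like cells, where its level was 1.43, 2.23 and 1.62 CPM. Within fibroblasts it leaned to the lining, opposite to the ligand gene: 2.90, 4.21 and 1.98 CPM in lining against 0.904, 1.72 and 1.28 in sublining cells. The groups did not overlap. In sublining against lining cells it was lower by a log2 change of -1.11 ± 0.29 (adjusted p = 0.0105, edgeR, 3 of 3 libraries), and 1 of the 6 genes tested was called, against 9.35% of all genes. The call rested on replicate 1, without which the change was -0.92 (adjusted p = 0.0770, edgeR).

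Outside fibroblasts the decoy gene Tnfrsf11b was sparse, and in some classes uneven over libraries. Osteoclast-like cells held 14 UMIs in replicate 1, 1 in replicate 2 and 0 in replicate 3, and dendritic-cell-like cells 0, 11 and 4. Neither pattern was shared by the libraries. Monocyte/macrophage-like cells held 3, 6 and 9 UMIs among 11081 cells (0.0982, 0.269 and 0.273 CPM, with a limit of 0.208), and endothelial-like cells held 6, 6 and 2 (0.694, 0.670 and 0.291 CPM, with a limit of 0.1996). Pericyte/smooth-muscle-like cells held 0 UMIs among 663 cells, which allows a level of up to 0.443 CPM, and T cell-like cells held 2. In T cell-like against fibroblast-like cells its change was -2.56 ± 0.84 (adjusted p = 0.00391, edgeR), a call lost without replicate 2 (-1.89). With 2 UMIs in T cell-like cells, Tnfrsf11b passed the filter on low counts through its fibroblast counts. A call for Tnfrsf11b could therefore only be lower here too.

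Over the comparison of T cells with fibroblasts, 7 of the 10 genes passed the filter on low counts. Tnfsf11, Tnfrsf11a and Nfatc1 were called higher and Tnfrsf11b lower, against 45.3% of all genes called in either direction, so a call by itself says little here. The receptor gene Tnfrsf11a, at 11.7, 3.53 and 20.2 CPM in T cell-like cells, lay about its free RNA limit of 7.20, and its call was lost without replicate 3 (0.46).

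Tnfrsf11a, the receptor gene, was a gene of the whole monocyte and macrophage lineage. It stood at 71.2, 83.2 and 83.3 CPM in monocyte/macrophage-like cells, where 73.7% ± 3.77 of its UMIs lay, against 4.74, 3.46 and 3.50 in fibroblast-like cells with a free RNA limit of 5.89. A UMI was found in 35.5% ± 1.44 of the macrophage class (median 6531 UMIs) and 4.95% ± 1.31 of fibroblast-like cells (median 11262 UMIs). Endothelial-like cells stood at 15.4, 13.5 and 12.2 CPM, above a limit of 5.75. Neutrophil-like cells stood at 8.37 ± 5.21 CPM with a limit of 6.21.

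Over 7 phagocyte classes the mean of the receptor gene lay between 65.6 and 104 CPM. Macrophage-gated cells of a cluster described further on stood higher, at 125 to 157 CPM. Its order was osteoclast-like 104 ± 13.5, MHC class II-macrophage-like 86.2 ± 7.31, cycling 78.9 ± 7.05, dendritic-cell-like 75.4 ± 19.2, infiltrating-monocyte-like 75.2 ± 12.1, Spp1/Arg1-macrophage-like 69.1 ± 13.8 and resident-macrophage-like 65.6 ± 3.36 CPM. The library values of neighbours in this order overlapped. In the 3 libraries osteoclast-like cells stood at 113, 110 and 88.5 CPM, above the macrophage class in each. The change was 0.43 ± 0.10 on the log2 scale, under the fold for a call (adjusted p = 3.48e-04, edgeR).

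No tested phagocyte comparison called the receptor gene. Its changes were 0.00 ± 0.11 in cycling against non-cycling, -0.05 ± 0.11 in Spp1/Arg1-macrophage-like against infiltrating-monocyte-like, -0.13 ± 0.18 in resident-macrophage-like against infiltrating-monocyte-like and -0.25 ± 0.20 in dendritic-cell-like against monocyte/macrophage-like cells. MHC class II-macrophage-like against infiltrating-monocyte-like cells, a comparison added after seeing the levels, gave 0.25 ± 0.07 (adjusted p = 0.0249, edgeR). A change missing the threshold does not show equal levels, and the signs of the cycling, Spp1/Arg1 and dendritic-cell values turned under other settings.

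Nfatc1, the transcription factor, was found in many classes. It was highest in osteoclast-like cells at 454, 479 and 479 CPM against 58.2, 75.8 and 57.6 in monocyte/macrophage-like cells, with no overlap. It rose by 2.91 ± 0.09 on the log2 scale (adjusted p = 6.43e-28, edgeR, 3 of 3 libraries). Osteoclast-like cells still held only 13.3% ± 4.11 of its UMIs, since monocyte/macrophage-like (28.04%), fibroblast-like (23.2%) and neutrophil-like cells (14.0%) also carried it.

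Lymphocytes held Nfatc1 at levels between these. It stood at 136, 168 and 196 CPM in T cell-like cells and at 215, 196 and 232 in natural-killer-cell-like cells. Against fibroblast-like cells (38.8 ± 3.06 CPM) T cell-like cells were higher by 1.57 ± 0.11 on the log2 scale (adjusted p = 9.54e-43, edgeR). Cd4-positive T cells, the class highest in the ligand gene, had 225 ± 26.1 CPM against 108 ± 32.5 in Foxp3-positive cells, a change of 1.09 ± 0.20 (adjusted p = 0.00186, edgeR) that was lost without replicate 1 (0.88) or 2 (adjusted p = 0.114, edgeR).

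Dcstamp and Ocstamp, whose products bring about the fusion of precursors into osteoclasts with many nuclei, were low outside osteoclast-like cells. Dcstamp stood at 148, 108 and 95.4 CPM in osteoclast-like cells against 1.64, 2.19 and 2.03 in monocyte/macrophage-like cells, and Ocstamp at 174, 186 and 206 against 4.09, 5.42 and 3.61. Neither pair of groups overlapped. Dcstamp rose by 5.93 ± 0.15 on the log2 scale (adjusted p = 6.77e-31, edgeR) and Ocstamp by 5.46 ± 0.12 (adjusted p = 3.70e-33, edgeR). Both genes were found in the same cell in 42.9% ± 4.98 of osteoclast-like cells and at least 1 of them in 77.3% ± 5.36.

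Acp5 and Atp6v0d2, which act in resorption, were detected in nearly every osteoclast-like cell, at 98.6% ± 0.756 and 95.5% ± 0.969. Acp5 stood at 5836, 5590 and 6497 CPM in osteoclast-like cells against 125, 121 and 139 in monocyte/macrophage-like cells, and Atp6v0d2 at 624, 710 and 794 against 9.36, 7.16 and 10.2. The osteoclast-like values were far above in every library. Acp5 rose by 5.56 ± 0.11 (adjusted p = 9.41e-36, edgeR) and Atp6v0d2 by 6.32 ± 0.11 on the log2 scale (adjusted p = 9.34e-37, edgeR). All 3 of Acp5, Atp6v0d2 and Nfatc1 were found in 90.1% ± 3.03 of osteoclast-like cells, whose median depth was 15747 UMIs against 6531 in the macrophage class.

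Oscar, whose product binds collagen and signals with RANK, had the largest share of its UMIs in osteoclast-like cells among the 10 genes. It stood at 41.2, 50.9 and 35.2 CPM in osteoclast-like cells against 0.196, 0.403 and 0.182 in monocyte/macrophage-like cells, and osteoclast-like cells, with 1.88% of all UMIs, held 76.0% ± 3.73 of its UMIs. Its change was 7.37 ± 0.29 on the log2 scale (adjusted p = 2.17e-24, edgeR). Calcr, a gene of mature osteoclasts, gave 3 UMIs in osteoclast-like cells and 27 in fibroblast-like cells of 47 in all, so no level of it could be given for osteoclasts at this depth.

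Of the 10 genes, 8 passed the filter on low counts in the comparison of osteoclast-like with monocyte/macrophage-like cells and 6 were called, each higher, where 29.5% of all genes were called and 11.8% called higher. Oscar, at 0.182 to 0.403 CPM in monocyte/macrophage-like cells, passed the filter through its osteoclast-like counts alone. A call for Oscar could therefore only be higher. Tnfsf11 and Tnfrsf11a were tested and not called, and Tnfrsf11b and Calcr were not tested. The cells were set apart by other osteoclast genes, so these values describe how far the 10 genes go with those markers.

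**Figure D3:**
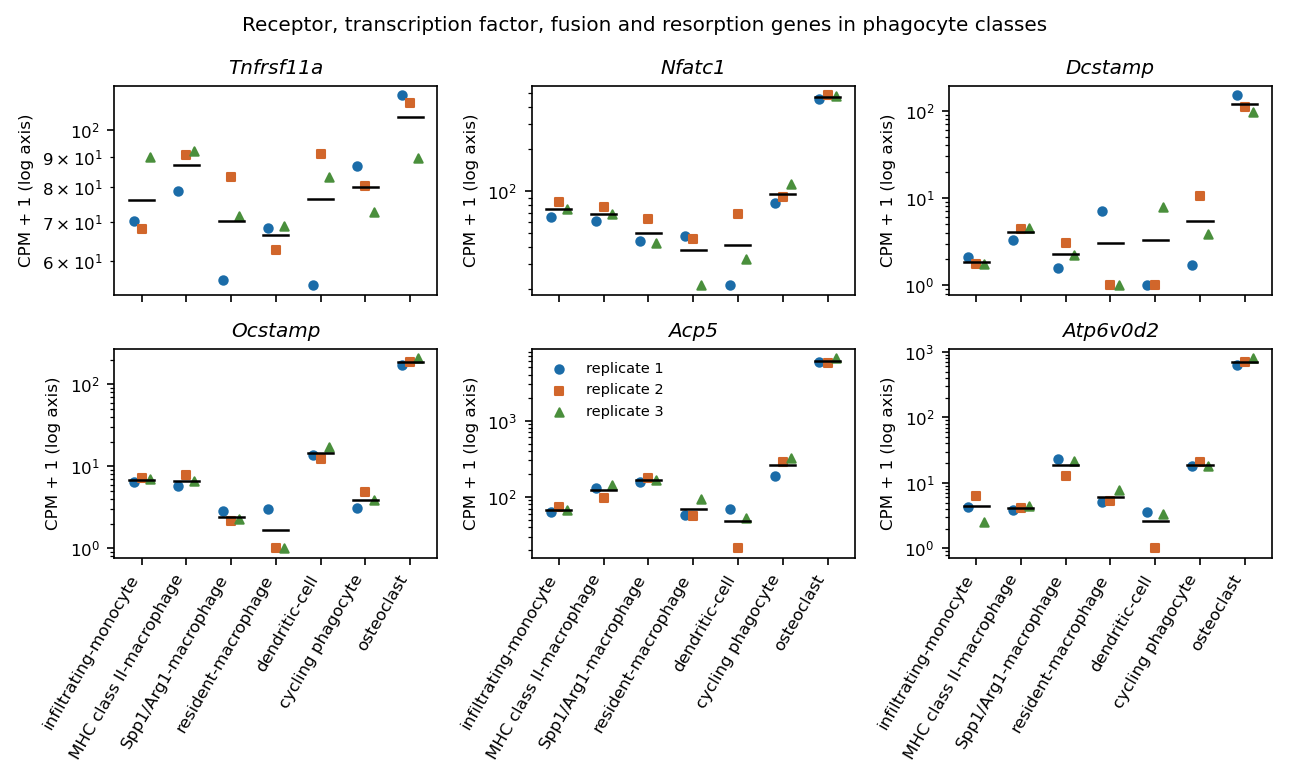
Level per library (CPM + 1, log axis, points) and mean (line) of 6 genes in 7 phagocyte classes (x axis). Tnfrsf11a spans a narrow range over all classes, while the other 5 genes stand apart in osteoclast-like cells.

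The approach to the osteoclast state was followed by ordering phagocytes by how many of the 10 gate markers of osteoclasts held a UMI. Acp5 stood at 95.5 ± 16.6 CPM in the 5570 cells with none, 152 ± 28.3 with 2, 533 ± 266 with 3, 2066 ± 542 with 4, and 8259 ± 599 in the 119 cells with 6 or more. Nfatc1 went from 67.2 ± 11.8 with none to 284 ± 15.9 with 4 and 511 ± 34.9 with 6 or more. Oscar and Dcstamp were still low with 4 markers, where they stood at 2.13 ± 1.21 and 23.7 ± 18.4 CPM, and with 6 or more at 76.6 ± 14.9 and 190 ± 62.0.

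The receptor gene did not rise steadily along this order. Tnfrsf11a stood at 87.5 ± 11.4 CPM with no marker, 70.5 ± 4.73 with 2, 73.3 ± 5.62 with 3, 97.6 ± 4.26 with 4 and 99.0 ± 14.0 with 6 or more. Cell depth moved with the number of markers, from a median of 5076.5 UMIs with none to 20149 with 6 or more, and its part in these values was not tested. The bins share cells with the gate, so the order is a description. Among monocyte/macrophage-like cells with a Tnfrsf11a UMI (3902 cells, median 7945.5 UMIs), 8.80% ± 0.771 held Dcstamp, Ocstamp, Oscar or Atp6v0d2, against 5.98% ± 0.506 of those without (7179 cells, median 5834 UMIs). At least 1 of these genes had a UMI in 5.49% ± 1.96 of fibroblast-like cells (median 11262 UMIs), a class outside the lineage. The share without the receptor UMI lay within the fibroblast range over libraries, and the share with it lay above that range. The depth of the cells differed between these sets, and its part was not tested.

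**Figure D4:**
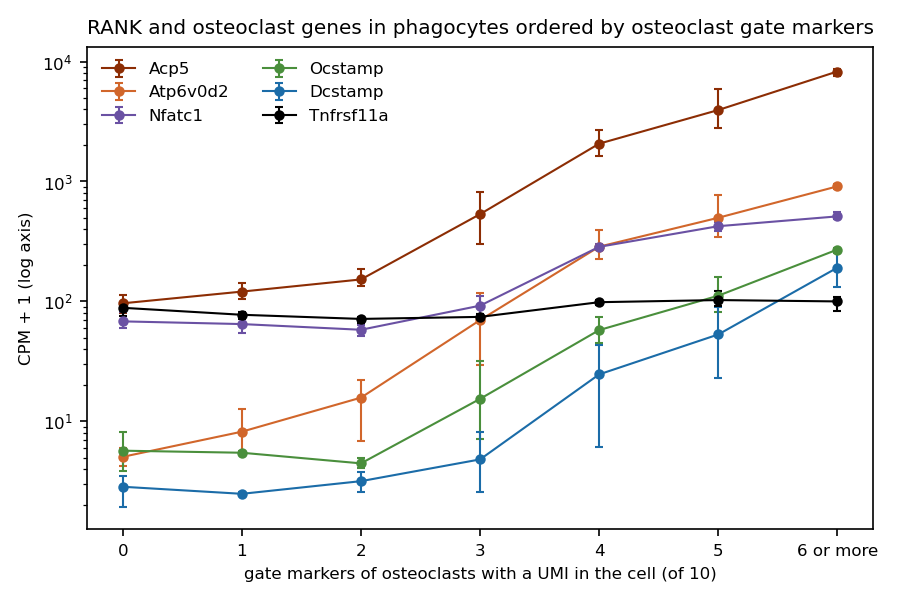
Level of 6 genes (CPM + 1, log axis, mean of 3 libraries with lines from the lowest to the highest library) in phagocytes by the number of osteoclast gate markers with a UMI (x axis, 10 markers). Tnfrsf11a stays between 70.5 and 102, while Acp5 goes from 95.5 to 8259.

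A cluster that held 276 of the osteoclast-like cells also held 271 monocyte/macrophage-gated cells at levels between the classes. In these, Acp5 stood at 402, 542 and 860 CPM, Nfatc1 at 188, 203 and 220, and Atp6v0d2 at 49.1, 52.7 and 53.8, while Oscar had 0 UMIs. Their Tnfrsf11a was 155, 157 and 125 CPM, above the 115, 114 and 88.3 of the osteoclast-gated cells of that cluster in each library. Their Ctsk was 133 ± 33.0 CPM against 4895 ± 380, their Csf1r 491 ± 79.1 against 585 ± 71.0 and their Mki67, a gene of dividing cells, 119 ± 26.8 against 76.1 ± 24.5. Because clusters use all genes, these values have no test.

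Dividing phagocytes had more Acp5 and Atp6v0d2 than other phagocytes, at low levels, and without the cells of the osteoclast cluster described above the Atp6v0d2 values overlapped. In cycling monocyte/macrophage-like cells, set apart by 7 cell cycle markers and without osteoclast-like cells, Acp5 stood at 185, 289 and 320 CPM against 122, 108 and 133 in non-cycling cells. The groups did not overlap. Acp5 rose by 1.10 ± 0.09 on the log2 scale (adjusted p = 9.49e-33, edgeR) and Atp6v0d2 by 1.13 ± 0.23 (17.99 ± 1.60 against 8.37 ± 1.93 CPM, adjusted p = 1.08e-05, edgeR). Both slipped under the fold for a call without replicate 2, to 0.90 and 0.82. Of 7 genes tested 3 were called, against 8.80% of all genes, the third being Dcstamp (4.37 ± 4.65 against 1.78 ± 0.201 CPM, 1.30 ± 0.47, adjusted p = 0.0221, edgeR, higher in 2 of 3 libraries), which turned to -0.23 without replicate 2. Nfatc1 stood at 94.4 ± 15.3 against 62.5 ± 10.6 CPM and was not called. Cycling cells had a median of 12744.5 UMIs against 6447, and summed osteoclast gate markers of 133 to 170 CPM against 121 to 143 over all monocyte/macrophage-like cells.

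The cycling and non-cycling cells were spread differently over the clusters. Of 278 cycling cells 69 (24.82%) lay in the cluster that held most osteoclast-like cells, their most common cluster, against 202 of 10803 non-cycling cells (1.87%). With those cells left out, a choice made after seeing the data and with no test, Atp6v0d2 stood at 12.0, 4.87 and 8.25 CPM in cycling and 8.22, 4.35 and 9.65 in non-cycling cells, and the groups overlapped. Acp5 stood at 142, 166 and 170 CPM in cycling and 117, 91.6 and 129 in non-cycling cells, a smaller gap in which the groups did not overlap. Nfatc1 stood at 59.4 ± 4.81 against 59.6 ± 7.82 CPM.

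Spp1/Arg1-macrophage-like cells, which carry genes of tissue remodelling and lipid handling, had more of the resorption genes and less Ocstamp. Against infiltrating-monocyte-like cells, Acp5 stood at 157, 177 and 164 CPM against 61.9, 72.7 and 65.8, and Atp6v0d2 at 22.0, 11.9 and 20.3 against 3.28, 5.39 and 1.504. Ocstamp went the other way, at 1.86, 1.14 and 1.25 against 5.46, 6.14 and 6.02. None of these groups overlapped. Acp5 rose by 1.40 ± 0.08 (adjusted p = 4.14e-08, edgeR), Atp6v0d2 rose by 2.53 ± 0.30 (adjusted p = 2.03e-05, edgeR), and Ocstamp changed by -1.92 ± 0.28 on the log2 scale (adjusted p = 9.45e-05, edgeR). Of 6 genes tested 3 were called, against 11.4% of all genes, and Nfatc1, at 49.0 ± 11.4 against 73.2 ± 9.03 CPM, was not. Ocstamp in Spp1/Arg1-macrophage-like cells was near its free RNA limit of 1.19 CPM.

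Other phagocyte classes moved 1 or 2 of the genes. Resident-macrophage-like cells held 1 UMI of Ocstamp, a change of -2.91 ± 1.03 from infiltrating-monocyte-like cells (adjusted p = 0.0283, edgeR). That call was lost without replicate 2 (-2.32) or 3 (-2.41), and 1 of 5 genes tested was called against 20.1% of all genes. Ocstamp passed the filter on low counts through its infiltrating-monocyte-like counts alone, so a call for it could only be lower. Nfatc1 in resident-macrophage-like cells stood at 37.3 ± 14.7 against 73.2 ± 9.03 CPM and was not called. MHC class II-macrophage-like cells had more Dcstamp than infiltrating-monocyte-like cells, at 2.31, 3.38 and 3.58 against 1.09, 0.744 and 0.752 CPM, a change of 1.82 ± 0.36 (adjusted p = 0.00228, edgeR). That was 1 of 7 genes tested, against 3.29% of all genes. Dcstamp passed the filter on low counts through its MHC class II-macrophage-like counts alone, so a call for it could only be higher. Acp5 in MHC class II-macrophage-like cells stood at 122 ± 23.2 against 66.8 ± 5.45 CPM, a change of 0.91 ± 0.11 that was not called.

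Dendritic-cell-like cells, with genes of antigen-presenting cells, had less of the resorption genes than monocyte/macrophage-like cells. Acp5 stood at 68.98, 20.3 and 52.6 CPM against 125, 121 and 139 and changed by -1.65 ± 0.24 (adjusted p = 3.70e-06, edgeR, 3 of 3 libraries). Atp6v0d2, at 2 UMIs in dendritic-cell-like cells, changed by -2.66 ± 0.81 (adjusted p = 0.0200, edgeR), a call lost without any 1 of the libraries. With so few UMIs there, Atp6v0d2 passed the filter on low counts through its monocyte/macrophage-like counts. A call for Atp6v0d2 could therefore only be lower. Of 7 genes tested 2 were called, against 12.4% of all genes. With library totals as scaling, the calls over all genes turned from 698 higher and 899 lower to 787 and 630. Ocstamp stood at 12.8, 11.3 and 16.02 CPM against 4.09, 5.42 and 3.61, with no overlap, and was not called (1.46 ± 0.54, adjusted p = 0.0604, edgeR). Nfatc1 stood at 40.0 ± 24.6 against 63.9 ± 10.3 CPM and was not called.

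Acp5 UMIs were not confined to osteoclast-like cells. Fibroblast-like cells held 20.2% ± 7.51 of the Acp5 UMIs at 109, 81.6 and 130 CPM, above their free RNA limit of 39.6. T cell-like cells stood at a mean of 102 CPM against 107 in fibroblast-like cells. Free RNA richer in Acp5 than the whole library was not tested. Adipocyte/reticular-like cells stood at 297, 296 and 325 CPM with a limit of 41.7, and 80.7% ± 3.44 of them held a UMI (median 9495 UMIs). Against fibroblast-like cells Acp5 rose by 1.57 ± 0.13 on the log2 scale there (adjusted p = 2.12e-19, edgeR). Of 7 genes tested 3 were called higher, against 7.24% of all genes called higher. The others, Tnfrsf11a (10.3 ± 4.26 against 3.90 ± 0.726 CPM) and Ocstamp (3.604 ± 3.46 against 1.02 ± 0.273), were lost without replicate 2, at 0.95 and 0.75. Summed osteoclast gate markers in adipocyte/reticular-like cells were 111 to 128 CPM, below the 317 to 340 of fibroblast-like cells. Summed macrophage markers were higher there, at 1898, 2250 and 3100 CPM against 1605, 1191 and 1777 in fibroblast-like cells, and their part in these calls was not tested.

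Of 6 lists for the rest of the pathway, 5 are given here, with 9 to 17 genes each. In osteoclast-like against monocyte/macrophage-like cells, 9 of 17 genes of the proton pump and acid secretion were higher, such as the chloride-bicarbonate exchanger gene Slc4a2 (132 ± 7.56 against 23.3 ± 2.30 CPM, 2.53 ± 0.11 on the log2 scale), and 1 was lower, the pump subunit gene Atp6v0a1 (10.4 ± 1.73 against 68.5 ± 4.87 CPM). Over all genes 11.8% were called higher and 17.7% lower. The median change of that list was 1.30, against -0.06 over all genes.

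RANK signalling genes split between both directions in osteoclast-like cells. Of 17 genes of RANK signalling and osteoclast transcription 4 were higher, such as Jdp2, an AP-1 partner (687 ± 92.1 against 63.0 ± 6.90 CPM), and 4 lower, such as Jun (133 ± 3.34 against 541 ± 37.7), and the median change was -0.23. Of 12 fusion and podosome genes 4 were higher, such as Src, a kinase of the sealing zone (173 ± 6.67 against 16.96 ± 2.21 CPM), and 4 lower, such as the tetraspanin gene Cd81 (41.5 ± 8.93 against 109 ± 7.27). Of 9 ITAM co-stimulation genes none was higher and 6 were lower, such as Fcer1g, the adaptor of OSCAR (738 ± 140 against 3087 ± 319 CPM). These counts stand beside the same 11.8% higher and 17.7% lower over all genes.

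The list of survival and coupling genes is described for T cells and stroma. In T cell-like against fibroblast-like cells, of 10 survival and coupling genes tested 1 was higher, Sema4d, a semaphorin (330 ± 22.5 against 18.3 ± 1.21 CPM), and 7 were lower, such as Cthrc1 (15.8 ± 3.63 against 221 ± 27.1), where 45.3% of all genes were called in either direction. The median change of that list was -3.42, against -0.13 over all genes. In the same comparison 6 of 17 RANK signalling genes were higher and 2 lower, and 2 of 12 fusion and podosome genes were higher and 5 lower. Of 17 proton pump genes none was higher and 3 were lower, and of 9 ITAM genes 1 was higher and none lower. These counts stand beside the same 45.3% of all genes. In sublining against lining cells, 2 of 10 were higher, such as Wnt5a (15.7 ± 2.23 against 3.83 ± 0.972 CPM), and 1 was lower, Sema3a, an inhibitor of osteoclast formation (4.11 ± 1.25 against 34.3 ± 3.46), where 9.35% of all genes were called. In pericyte/smooth-muscle-like against fibroblast-like cells 1 of 10 was higher, Il34, a second ligand of the CSF1 receptor (282 ± 64.1 against 19.5 ± 4.03 CPM), and 4 were lower, such as Cthrc1 (24.0 ± 10.3 against 221 ± 27.1), where 19.0% of all genes were called.

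Over the 22 classes with at least 20 cells in every library, the 3 genes nearest in pattern to Tnfsf11 included B3galt2 (Pearson r = 0.849) and Lgals7 (0.833). Those nearest to Tnfrsf11a were Shtn1 (0.937), Cd68 (0.910, a macrophage gate marker) and Ifi30 (0.908), and those nearest to Acp5 were Cluh (0.825), Adck3 (0.823) and Slc9b2 (0.806), the last an osteoclast gate marker. Among the 10 genes, Dcstamp and Atp6v0d2 were most alike (0.883), and Tnfsf11 and Tnfrsf11a least alike (-0.495). These correlations run over classes from the same 3 libraries, with cycling cells also counted in a macrophage class, and describe these data.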

How the data were processed

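The deposited matrices give unnormalised UMI counts for every gene and barcode and, per the file headers, were made with PISA 1.0. Seurat 3.0.2, R 3.6 and GRCm39 are named in the submitters' processing notes, and the aligner is not given in the sources used here. Barcodes are names of bead groups within a library and hold no sequence, so the 2702, 2866 and 2602 names shared between libraries 1 and 2, 1 and 3, and 2 and 3 do not show shared cells. The labels state 11111, 10668 and 14363 cells, fewer than the barcodes in the files, each of which held at least 1000 UMIs.

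Barcodes with under 200 genes or over 20% mitochondrial UMIs (82) and those with a Scrublet score over 0.2 (1853) were left out. The automatic Scrublet limit marked 449, 1 and 1285 barcodes, so a fixed score was used. Each cell took the class whose markers scored highest, with at least 3 markers and a margin of 0.05, and 4.57% of cells had no clear class. Clusters came from scanpy 1.11.5 and leidenalg 0.10.2 at resolution 2.0. The markers Trac, Trbc1, Trbc2, Trdc, Tcrg-C1, Tcrg-V6 and Scart2 were not used here.

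For each class and library the UMIs of its cells (at least 20) were added up and tested with edgeR 4.0.16 (R 4.3.3): quasi-likelihood F-test, 2-sided, TMM scaling, filterByExpr, with the library as a block because both sums of a library come from the same 2 mice. P-values were adjusted by Benjamini-Hochberg over all genes tested. DESeq2 1.42.0, library totals, no filter, no block, each library left out, clusters, doublets kept, a margin of 0.15, cells thinned to 1000 UMIs and free RNA subtracted were the alternatives. On simulated counts with a log2 change of 1.5, the test recovered 99% of 100 changed genes for T cell-like against fibroblast-like cells (14527 genes, 0 unchanged genes called) and 98% of 100 for osteoclast-like against monocyte/macrophage-like cells (12898 genes, 5 unchanged genes called). There both classes shared a mean profile apart from the changed genes, which had a mean of at least 10 CPM. Recovery for genes of lower level, or where a large part of all genes differs, was not tested.

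The 10 genes and all lists were chosen with earlier results of these data known. Named genes were the 10, the called list gene with the largest change in each direction (same direction in 3 of 3 libraries, at least 10 CPM in the higher class), and the 3 genes most alike in pattern to Tnfsf11 (2 of them reported here), Tnfrsf11a and Acp5. Comparisons of MHC class II-macrophage-like, adipocyte/reticular-like and Cd4-positive T cells were added after seeing the data. A planned T cell subset comparison and a planned gene list are not reported here. Groups of 3 libraries were too small for a check on single outlying libraries.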

Additional observations from a re-analysis of the deposited data

How the results depend on the processing

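With each cell thinned to 1000 UMIs, which leaves fewer genes to test, calls went from 1234 to 511 for sublining against lining, 2736 to 1814 for pericyte, 3883 to 1993 for osteoclast-like, 1135 to 510 for cycling, 1318 to 646 for Spp1/Arg1, 2099 to 577 for resident, 1597 to 750 for dendritic-cell-like, 400 to 203 for MHC class II, 2545 to 879 for adipocyte/reticular-like and 335 to 86 for Cd4- against Foxp3-positive T cells. Classes from clusters gave 2356 calls for sublining against lining. DESeq2 gave 163 for Cd4- against Foxp3-positive T cells. With free RNA subtracted the counts were 618 for MHC class II and 87 for Cd4- against Foxp3-positive T cells, which ranged from 68 to 334 with each library left out. The cause of these was not tested.

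Changes that missed the threshold turned sign as follows. Tnfrsf11a in cycling cells was -0.0836 with no filter, -0.0604 with doublets kept, -0.0520 with the stricter margin, -0.27 thinned, -0.0391 with free RNA subtracted, and -0.16 to 0.11 with each library left out. Nfatc1 in cycling cells was -0.0517 thinned. Dcstamp in cycling cells, which was called, ranged from -0.23 to 1.83. Tnfrsf11a in Spp1/Arg1 cells was 0.55 by clusters, 0.0155 thinned, 0.0320 with free RNA subtracted, and -0.23 to 0.0594 with each library left out, and in dendritic-cell-like cells 0.49 thinned.

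Without the replicate block, Tnfrsf11a in cycling cells was -0.0047, and in edgeR the calls of Dcstamp in cycling cells (adjusted p = 0.0959), Atp6v0d2 in pericytes (adjusted p = 0.0817) and Ocstamp in adipocyte/reticular-like cells (adjusted p = 0.0730) were lost, while Ocstamp in dendritic-cell-like cells was called (adjusted p = 0.0319). Levels moved beyond 1 SD for Tnfrsf11a in macrophages (91.7 CPM thinned) and osteoclast-like cells (120 by clusters, 123 thinned), Acp5 in osteoclast-like cells (3678 by clusters, 6833 thinned) and Tnfrsf11b in fibroblasts (1.06 thinned). Cycling, resident, dendritic-cell-like and Cd4- against Foxp3-positive comparisons have no value by clusters, since no cluster was named for a class. Low counts of Tnfrsf11b, Oscar and Calcr limit what can be read at this depth.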
